A study of Mus musculus with 25 samples.

Results

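The collagen genes of the mouse sciatic nerve were followed in 25 RNA-seq libraries. Members were all protein-coding genes whose symbol has the form Col, a type number, the letter a and a chain number, which gave 44 of the 56956 genes in the count table. Of these, 39 had a mean of at least 1 CPM (counts per 1e6 counted reads) over the 25 libraries and are described. They comprised 11 fibrillar genes (types I, II, III, V, XI, XXIV and XXVII), 8 basement membrane genes (types IV, XV and XVIII) and 20 other genes. Col17a1 was just inside this limit with a mean of 1.47 CPM and Col6a4 just outside with 0.508 CPM. The other members below it were Col10a1, Col19a1, Col22a1 and Col25a1.

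There were 5 groups, and each had 1 library per age, the ages in weeks being 3, 5, 7, 9 and 12. C3 mice carry 5 additional copies of the human PMP22 gene on a C57BL/6J background, and C22 mice carry 10 on an FVB/NRJ background, as models of Charcot-Marie-Tooth disease type 1A, a demyelinating neuropathy. WT-C3 and WT-C22 are the wild types of those backgrounds. C3-cJunKO mice (C3-PMP22 c-JunP0Cre) carry the C3 transgene and lack c-Jun in Schwann cells, through a Cre active in the Schwann cell lineage; cells outside that lineage keep the gene. No group was treated, and the labels name 1 batch. Each library pooled whole sciatic nerves from 4 to 5 male and female animals. Copy number and strain change together between C3 and C22 and cannot be told apart. The 5 ages stand in for replicates, so each group's spread holds the change with age, and p-values measure the spread between these pools. Calls that were added when age entered the fit as a block are named under the dependence on processing.

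Counts on genes ranged from 2140142 (C3 at 9 weeks) to 49072746 per library, with a median of 24663235. Human PMP22 averaged 12622 ± 1613 CPM (SD, n = 5) in C3, 11433 ± 3068 in C3-cJunKO and 11843 ± 1509 in C22, against 3.16 ± 2.14 in WT-C3 and 0.821 ± 1.46 in WT-C22. Although C22 carries more copies, its libraries (9756 to 13905 CPM) overlapped those of C3 (10100 to 13938 CPM). Jun, the gene of c-Jun, averaged 29.2 ± 2.45 CPM in C3-cJunKO and 110 ± 11.6 in C3 (log2 fold change -1.90, adjusted p = 7.286e-07). Markers of Schwann cells, fibroblasts, perineurial cells, endothelial cells, pericytes and macrophages were found in every group, whereas the summed level of 7 markers of cartilage, tendon and bone reached at most 2.92 CPM. Markers of skeletal muscle summed to between 5.97 and 8990 CPM and those of blood to between 45.3 and 1573 CPM, varying within groups.

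Collagens are secreted chains that wind together into a triple helix, and the helix is possible because glycine recurs at a fixed interval along each chain. Fibrillar collagens form the fibrils that carry tension in the endoneurium and epineurium. Type IV collagen forms the sheet-like network of basement membranes, which surround every Schwann cell, perineurial cell and blood vessel of the nerve. The remaining types decorate fibrils, form microfilaments or anchoring fibrils, or span the cell membrane. Fibroblasts are the main source of fibrillar collagen in nerve, and Schwann cells secrete the collagen of their own basal lamina.

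The glycine repeat is visible in the coding sequence. One stretch of 54 bases is shown for Col1a1, the reference fibrillar chain, and for members that stand out below, with the glycine codon (GGN) that opens each triplet of the repeat in capitals. The last triplet of the Col1a1 stretch holds a further glycine codon, in lower case. Sequences are from GRCm39 on the coding strand. In Col1a1 the stretch is coding exon 8 of 51 (chr11:94830730-94830783, + strand), in Col4a1 it lies in coding exon 3 of 52 (chr8:11297042-11297095, - strand), in Col8a2 in exon 2 of 2 (chr4:126204925-126204978, + strand), in Col23a1 in exon 9 of 28 (chr11:51448298-51448351, + strand) and in Col27a1 in exon 7 of 61 (chr4:63163306-63163359, + strand).
Col1a1: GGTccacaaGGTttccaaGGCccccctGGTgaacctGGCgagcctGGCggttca
Col4a1: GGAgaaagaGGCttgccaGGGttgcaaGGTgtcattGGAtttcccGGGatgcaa
Col8a2: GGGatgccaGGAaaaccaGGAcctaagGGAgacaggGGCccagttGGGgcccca
Col23a1: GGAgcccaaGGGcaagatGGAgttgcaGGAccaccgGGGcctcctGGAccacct
Col27a1: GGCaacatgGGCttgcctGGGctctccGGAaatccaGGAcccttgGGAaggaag

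The classes differed in how long this repeat ran without a break. In the fibrillar genes the longest unbroken run spanned 216 to 344 triplets (median 338), with Col24a1 (216) and Col27a1 (217) shorter than the rest. In the basement membrane genes it spanned 30 to 66 triplets (median 41), and Col4a1 had 16 separate runs, the longest of 40. The other genes had 23 to 113 triplets (median 48.5), among them Col8a2 with 60, Col23a1 with 43 and the type IX genes with 113 each. Exons of exactly 54 bases numbered 21 of 51 coding exons in Col1a1 and 33 of 61 in Col27a1, against 2 of 52 in Col4a1 and 0 of 2 in Col8a2.

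Per kilobase of exon, which allows genes to be compared, the highest mean levels over the 25 libraries were those of Col1a1 (537 CPM per kb), Col3a1 (488) and Col1a2 (409), the main chains of type I and type III fibrils. The ubiquitous basement membrane chains Col4a1 (256) and Col4a2 (188) followed. Col5a3, a type V chain that Schwann cells secrete, had 170 CPM per kb, Col15a1, a proteoglycan-like collagen of the basement membrane zone, 112, Col6a1, a microfilament chain, 101, and Col5a1, which nucleates type I fibrils, 96.7. Of the other type IV chains, Col4a5 had 4.49, Col4a4 2.72, Col4a3 1.03 and Col4a6 0.240 CPM per kb. Col17a1, a membrane collagen of hemidesmosomes, was nearly as low at 0.245.

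The 39 genes together held 2.46% ± 0.857 (SD, n = 25) of all gene counts after scaling, with a range from 1.44% to 4.13%. Fibrillar genes made up 1.69% ± 0.676, basement membrane genes 0.445% ± 0.128 and the other genes 0.321% ± 0.0766. The mean fibrillar sum ran from 1.51% ± 0.523 (n = 5; 0.978% to 2.298%) in C22 to 2.04% ± 0.797 (0.936% to 2.83%) in C3, and the ranges of all 5 groups overlapped. The basement membrane sum was 0.304% ± 0.0517 in C22 and 0.512% ± 0.108 in WT-C22, with all C22 libraries (0.250% to 0.386%) under all WT-C22 libraries (0.420% to 0.680%). In C3 (0.507% ± 0.126) and WT-C3 (0.445% ± 0.124) this sum overlapped.

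**Figure D1:**
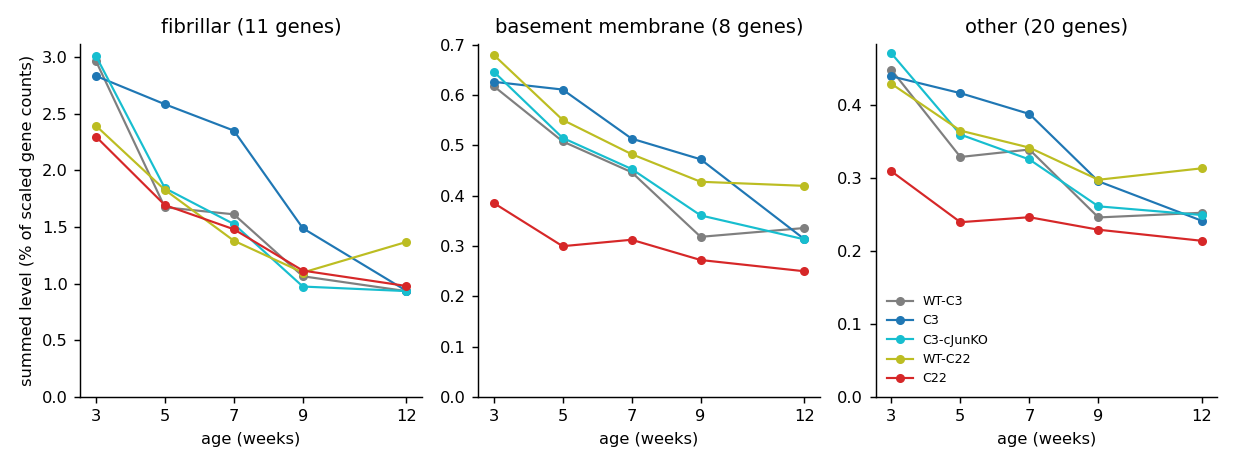
Summed level of the fibrillar, basement membrane and other collagen genes (percent of all scaled gene counts) against age in weeks, with 1 line per group and 1 point per pooled library. All sums are lower at 12 than at 3 weeks, and the C22 line lies lowest among the basement membrane genes at every age.

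The comparison of C3 with WT-C3 asks what 5 additional PMP22 copies change on the C57BL/6J background. Levels are given as scaled CPM, that is, counts per 1e6 after TMM scaling of library sizes, and library values always run from the youngest to the oldest mice. Of the 39 members, 9 were higher and 1 was lower at an adjusted p under 0.05, together 25.6% against 23.9% of the 13993 genes tested. In each direction the background was 12.5% of genes higher and 11.4% lower. The median log2 fold change was 0.20 over the members and 0.00106 over all genes, and all 11 fibrillar members had a positive value, of which 3 passed the test. Of the 9 members that rose, 3 were fibrillar, 1 belonged to the basement membrane class and 5 to the other types.

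Col27a1, a fibrillar collagen of developing cartilage, changed most. Its scaled CPM was 79.7, 75.7, 61.2, 50.7 and 78.2 in WT-C3 and 267, 265, 217, 232 and 142 in C3. Every C3 library was above every WT-C3 library, and the rise was 3.23-fold (log2 fold change 1.69, SE 0.175, adjusted p = 0.0001003, edgeR quasi-likelihood test with Benjamini-Hochberg adjustment, as for all adjusted p-values here). Col2a1, the main fibrillar collagen of cartilage, had 16.4, 7.35, 11.0, 6.67 and 13.7 scaled CPM in WT-C3 and 37.9, 44.7, 37.1, 23.3 and 20.1 in C3. These groups did not overlap either (log2 fold change 1.59, SE 0.275, adjusted p = 0.002178). Col11a2, a chain of the fibril-nucleating type XI collagen, had 15.6, 10.2, 7.32, 7.47 and 10.9 in WT-C3 and 39.1, 31.2, 25.6, 28.0 and 17.4 in C3, again without overlap (log2 fold change 1.45, SE 0.238, adjusted p = 0.001591). The defining cartilage, tendon and bone markers stayed near 0 in both groups, with summed levels of 1.51 to 2.92 CPM in WT-C3 and 0 to 2.85 CPM in C3.

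Among the remaining genes that rose, Col7a1, the anchoring fibril collagen of skin, averaged 79.4 ± 33.4 scaled CPM in C3 and 29.8 ± 8.21 in WT-C3 (log2 fold change 1.40, SE 0.287, adjusted p = 0.005228). Chains of type IX collagen, which coats type II fibrils, also rose, Col9a3 by a log2 fold change of 1.32 and Col9a1 by 1.19, while Col9a2 had 0.34 (adjusted p = 0.1613). Col9a1 averaged only 4.10 ± 1.81 scaled CPM in C3, and its call was lost in 6 of 10 fits that left out 1 library. Col18a1, the basement membrane collagen that contains endostatin, was the only basement membrane member that passed, with 229.5, 215, 201, 153 and 185 in WT-C3 and 426, 523, 399, 392 and 269 in C3 (log2 fold change 1.03, SE 0.158, adjusted p = 0.00108). All 5 C3 libraries were above all WT-C3 libraries for this gene, whereas Col4a1 had a log2 fold change of 0.11 and Col4a2 of 0.18, with no call. The fibril-associated collagens Col16a1 (0.97, adjusted p = 0.0008633) and Col12a1 (0.52, adjusted p = 0.03029) rose as well, Col12a1 losing its call in 7 of 10 fits without 1 library.

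Col23a1, a membrane-spanning collagen, was the single member that fell. It had 377, 435, 359.8, 349 and 404 scaled CPM in WT-C3 and 247, 280, 265, 381 and 264 in C3 (log2 fold change -0.43, SE 0.114, adjusted p = 0.018). C3 was lower at 4 of 5 ages. The exception was the 9-week library, which was the shallowest of the series and held 817 counts of Col23a1. Without the 3-week C3 library the call was lost. In bulk tissue, fewer cells of a type and less RNA per cell cannot be told apart. Of the cell type markers, 5 of 6 perineurial markers were lower in C3 (summed 1233 to 1740 CPM against 1332 to 2072), 2 of 5 pericyte markers were lower, 4 of 4 proliferation markers were higher (21.9 to 71.0 CPM against 5.37 to 26.2), and the fibroblast sum overlapped (2923 to 3892 against 3070 to 4122, 1 of 8 tested markers higher and 1 lower). The summed Schwann cell markers were lower in every C3 library (34716 to 52698 CPM) than in any WT-C3 library (53246 to 95272), while 3 of 7 markers (Mag, Ncam1 and Ngfr) were higher. Of the other lists, 1 of 5 endothelial markers was lower, 1 of 6 macrophage markers was higher, and no adipocyte, muscle, mast cell or blood marker passed. Their part in the collagen differences was not tested.

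**Figure D2:**
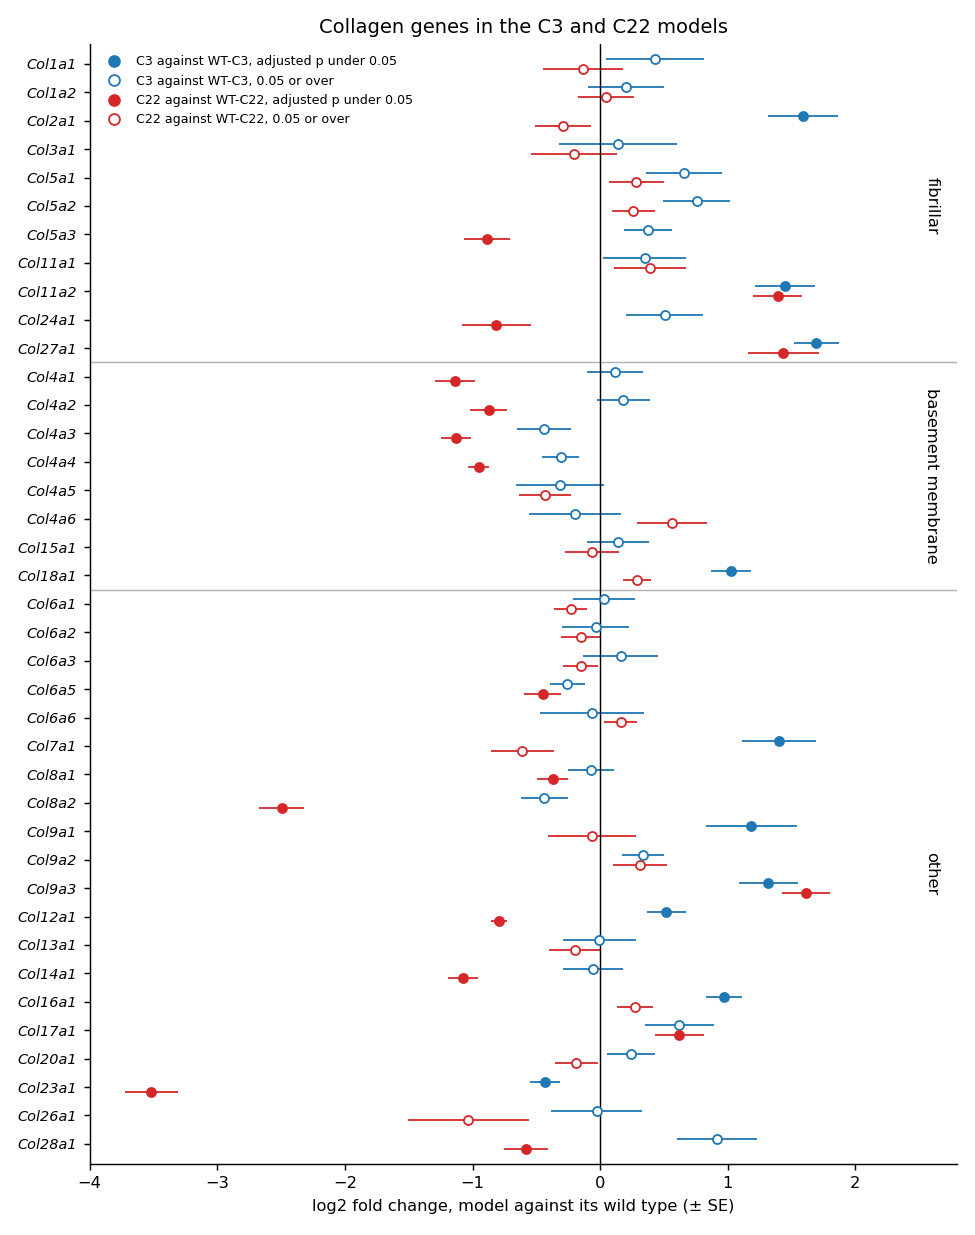
Log2 fold change (± SE) of the 39 collagen genes in C3 against WT-C3 (blue) and C22 against WT-C22 (red), ordered by class, with filled points at an adjusted p under 0.05. Filled red points lie left of 0 for 13 genes, furthest for Col23a1 (-3.52), while filled blue points lie right of 0 for 9 genes.

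In the C22 model, compared with WT-C22 on the FVB/NRJ background, more members fell than rose. In all, 4 were higher and 13 lower, or 43.6% of the members against 42.4% of all genes tested, where 21.9% were higher and 20.5% lower. Their median log2 fold change was -0.20, against 0.00457 over all genes. Scaling by library size alone in place of TMM gave 7 higher and 9 lower members, with 51.6% of all genes called, and moved the median of all genes to 0.17. Under that scaling 5 members without a call changed sign, namely Col1a1, Col6a2, Col6a3, Col9a1 and Col15a1, and no member with a call did. The calls lost under it were those of Col6a5, Col8a1, Col24a1 and Col28a1. By class, 4 of 8 basement membrane members fell and none rose, 2 of 11 fibrillar members fell and 2 rose, and 7 of 20 other members fell and 2 rose.

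Col23a1 had the lowest ratio to its wild type. Its scaled CPM was 588, 554, 508, 506 and 434 in WT-C22 and 30.4, 36.8, 41.4, 49.1 and 69.2 in C22. Each C22 library was far below each WT-C22 library (log2 fold change -3.52, SE 0.207, adjusted p = 2.578e-07), and the C22 values increased with age while those of WT-C22 did not. Col8a2, a short-chain collagen of the cornea and vessel wall, had 40.0, 41.9, 48.6, 54.0 and 53.2 in WT-C22 and 11.8, 10.1, 7.59, 6.67 and 6.28 in C22 (log2 fold change -2.50, SE 0.177, adjusted p = 1.03e-06). Here too the groups were separate, but the C22 values decreased with age. The partner chain Col8a1 had a log2 fold change of -0.37 (adjusted p = 0.02965), and that call was lost in 7 of 10 fits that left out 1 library.

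Of the 6 type IV chains, 4 fell in C22. Col4a1 had 3319, 2646, 2383, 2119 and 1971 scaled CPM in WT-C22 and 1416, 1089, 1152, 1086 and 923 in C22. The highest C22 library, at 3 weeks, was below the lowest WT-C22 library, at 12 weeks (log2 fold change -1.14, SE 0.158, adjusted p = 0.0001673). Col4a2, its partner in the same heterotrimer, averaged 874 ± 131 in C22 and 1596 ± 321 in WT-C22 (log2 fold change -0.87, adjusted p = 0.0006515). Col4a3, a chain of the tougher network known from the kidney glomerulus, had 6.62, 7.43, 7.45, 7.27 and 6.18 in WT-C22 and 3.57, 2.96, 3.40, 3.28 and 2.74 in C22, without overlap (log2 fold change -1.13, SE 0.117, adjusted p = 2.021e-05). Its partner Col4a4 fell by 0.95 on the log2 scale (adjusted p = 5.931e-06). Col4a5 (-0.43, adjusted p = 0.1061) and Col4a6 (0.56, adjusted p = 0.1242) had no call, nor did Col15a1 (-0.06, adjusted p = 0.8304) or Col18a1 (0.29, adjusted p = 0.05628).

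Among fibrillar genes, Col5a3 fell in C22 from 1362 ± 344 to 739 ± 131 scaled CPM (log2 fold change -0.89, SE 0.178, adjusted p = 0.002038), and Col24a1 had a log2 fold change of -0.81 (adjusted p = 0.03078), a call lost in 4 of 10 fits without 1 library. Col1a1 had no call. Its scaled CPM was 5130, 3554, 2654, 2187 and 2836 in WT-C22 and 5014, 3544, 2797, 1971 and 1604 in C22, overlapping at most ages (log2 fold change -0.13, adjusted p = 0.7511). Of the fibril-associated collagens, which link fibrils to their surroundings, Col14a1 (-1.08, adjusted p = 3.004e-05) and Col12a1 (-0.79, adjusted p = 2.582e-06) fell. Col12a1 had 132, 120.3, 132, 129 and 118 in WT-C22 and 79.9, 76.0, 68.9, 70.0 and 71.5 in C22, so that the groups were apart at every age. Col28a1, a beaded-filament collagen best known from peripheral nerve, and Col6a5, a type VI chain, fell by smaller amounts (-0.58 and -0.45, adjusted p = 0.01966 and 0.02757), the latter lost in 6 of 10 fits without 1 library.

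The members that rose in C22 were Col9a3, Col27a1, Col11a2 and Col17a1. Col9a3 had 22.7, 18.5, 13.3, 12.3 and 12.1 scaled CPM in WT-C22 and 56.7, 54.3, 49.6, 36.1 and 44.1 in C22 (log2 fold change 1.62, SE 0.189, adjusted p = 4.835e-05). Col27a1 had 98.7, 65.3, 48.3, 37.7 and 43.4 in WT-C22 and 252, 137, 159, 114 and 132 in C22 (log2 fold change 1.44, SE 0.280, adjusted p = 0.00166). Col11a2 had 24.3, 15.3, 15.2, 10.8 and 11.3 in WT-C22 and 44.6, 38.9, 39.5, 35.9 and 42.7 in C22 (log2 fold change 1.39, SE 0.192, adjusted p = 0.0001639). For these genes every C22 library was above every WT-C22 library, and the same genes had passed the test in C3 in the same direction. Col17a1, the lowest of the described genes, averaged 1.51 ± 0.264 scaled CPM in C22 and 0.978 ± 0.179 in WT-C22, and its call did not hold with no filter on low counts, without the 3-week C22 library or without the 9-week WT-C22 library.

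Cell type markers also differed between C22 and WT-C22. All 5 pericyte markers were lower (summed 358 to 451 CPM against 555 to 621), as were 5 of 6 perineurial markers (908 to 1154 against 1337 to 2062) and 3 of 5 endothelial markers (288 to 443 against 421 to 586). The Schwann cell sum was 21896 to 33503 against 43325 to 89242 CPM, with 3 of 7 markers lower and 2 higher. Fibroblast sums overlapped (3164 to 4028 against 3405 to 4387), with 3 of 8 tested markers lower, and 4 of 4 proliferation markers were higher (23.3 to 61.4 against 6.14 to 15.0). Of 6 macrophage markers 2 were higher and 1 lower, and none passed for adipocytes, muscle, mast cells or blood. Pericytes, endothelial, perineurial and Schwann cells all bear basement membranes. The part of these shifts in the lower collagen levels was not tested.

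**Figure D3:**
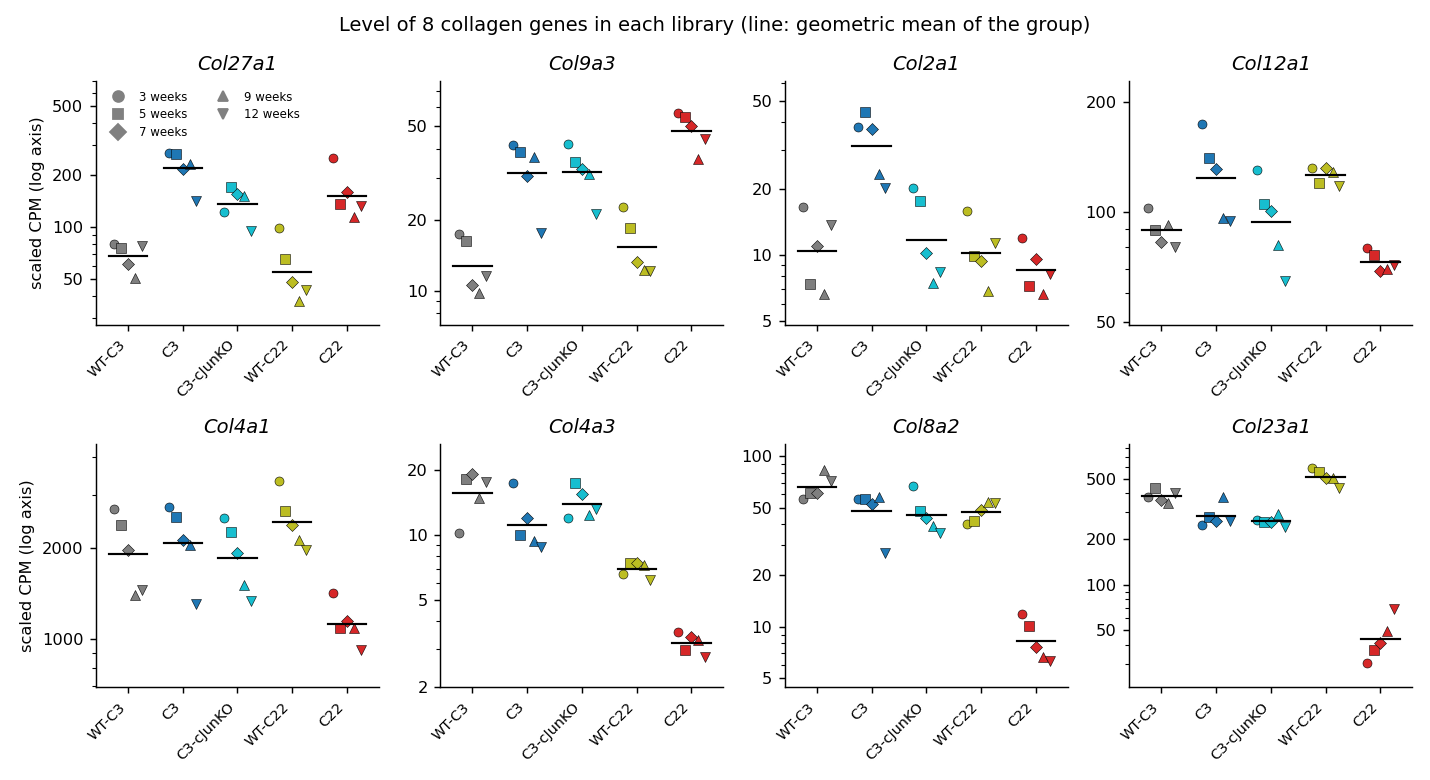
Scaled CPM (log axis) of 8 collagen genes in every library, by group, with a symbol for each age and a line at the geometric mean of the group. Col27a1 and Col9a3 are higher in both models than in their wild types, and Col4a1, Col8a2 and Col23a1 are lowest in C22.

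The difference between the models was tested directly, as the C22 effect minus the C3 effect. It was negative at an adjusted p under 0.05 for 13 of 39 members and positive for 0, or 33.3% of members against 12.1% of all genes, where 7.31% were negative and 4.75% positive. The members' median was -0.45 and that of all genes -0.0295. Strain and copy number both differ between the models, so neither can be assigned the difference. Of the 13 members, 4 were in the basement membrane class (Col4a1, Col4a2, Col4a4 and Col18a1), 2 were fibrillar (Col2a1 and Col5a3) and 7 were other types.

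Col12a1 passed the test in opposite directions in the models. It had 103, 89.1, 83.0, 91.9 and 80.2 scaled CPM in WT-C3 and 174, 141, 131, 96.1 and 94.6 in C3, where each C3 library exceeded the WT-C3 library of its age, while in C22 it was lower at every age (difference of effects -1.33, SE 0.177, adjusted p = 3.392e-05). For Col23a1, lower in both models, the difference was -3.11 (SE 0.239, adjusted p = 4.566e-08). Col8a2 had 56.4, 60.6, 60.8, 83.1 and 71.9 in WT-C3 and 55.9, 56.1, 52.3, 57.4 and 26.95 in C3, where only the 12-week library stood far below, and its difference was -2.08 (adjusted p = 2.583e-05). The 12-week C3 library also had the highest summed muscle markers of C3 (5428 CPM, the lowest C3 library having 152). The part of muscle RNA in its collagen levels was not tested. Col4a1 had 2697, 2379, 1967, 1404 and 1451 in WT-C3 and 2724, 2528, 2128, 2054 and 1307 in C3. These overlapped throughout, and the difference of effects was -1.27 (adjusted p = 0.005649).

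Genes that rose in C3 but had no call in C22 included Col2a1, with 15.8, 9.88, 9.39, 6.84 and 11.3 scaled CPM in WT-C22 and 11.9, 7.24, 9.60, 6.63 and 8.18 in C22 (difference -1.90, adjusted p = 0.002052). Col7a1 had 38.7, 35.8, 27.6, 17.6 and 29.4 in WT-C3, 129, 72.1, 66.7, 91.0 and 38.6 in C3, 124, 79.4, 69.5, 53.1 and 43.6 in WT-C22 and 59.0, 38.2, 51.8, 41.1 and 52.2 in C22. It was higher in C3 than in WT-C3 at each age and lower in C22 than in WT-C22 at 4 of 5 ages (difference -2.04, adjusted p = 0.002302). Col28a1 had 259.5, 214, 155, 109 and 119 in WT-C3 and 506, 401, 334, 196 and 176 in C3. Its log2 fold change of 0.92 missed the threshold in the fit without age (adjusted p = 0.05258). With age as a block it had an adjusted p of 0.0003917 (log2 fold change 0.88) and was higher in C3 at 5 of 5 ages. In C22 it had 71.9, 49.9, 52.7, 47.1 and 46.3 against 112, 86.7, 66.1, 76.3 and 58.4 in WT-C22, and the difference of effects was -1.52 (adjusted p = 0.01384). The remaining differences, for Col5a3 (-1.29), Col4a2 (-1.08), Col14a1 (-1.04), Col18a1 (-0.76), Col16a1 (-0.72) and Col4a4 (-0.66), had adjusted p-values between 0.003601 and 0.02866, and Col16a1 lost its call in 6 of 20 fits without 1 library. For Col27a1 (-0.28, SE 0.348), Col11a2 (-0.08, SE 0.324) and Col9a3 (0.28, SE 0.317), which rose in both models, no difference passed the test.

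The C3-cJunKO group gives the levels of C3 nerves that lack c-Jun in Schwann cells. Its genotype label names no strain background, and no group carries the Cre without the C3 transgene. Effects of c-Jun loss, of the Cre and of background therefore cannot be told apart. In the unpaired edgeR quasi-likelihood fit no member passed the test against C3 (0 of 39, with 0.550% of all genes called, 0.222% higher and 0.329% lower), while 5 members and 1096 genes had an unadjusted p under 0.05. DESeq2 and the edgeR likelihood ratio test each called 2 members, Col2a1 and Col27a1, both lower. The share of all genes called by these tests is not given here. Libraries of the same age deviated together in this comparison, with correlations of 0.143 to 0.614. With age as a block, 6 of 39 members were lower and 0 higher, while 1.95% of all genes were called, 1.17% higher and 0.779% lower. They were Col2a1, Col27a1, Col5a1, Col11a2, Col9a2 and Col12a1, of which 4 are fibrillar.

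Col2a1 had 20.0, 17.5, 10.2, 7.43 and 8.39 scaled CPM in C3-cJunKO, against 37.9, 44.7, 37.1, 23.3 and 20.1 in C3. It was lower at 5 of 5 ages, and the highest C3-cJunKO value, at 3 weeks, just missed the lowest C3 value, at 12 weeks (log2 fold change -1.39, SE 0.304, adjusted p = 0.08962 unpaired and 0.001287 with the age block). The unpaired adjusted p was 0.0486 without the 3-week C3-cJunKO library. Col27a1 had 123, 171, 157, 151 and 94.9 in C3-cJunKO, lower than C3 at each age but overlapping in range (log2 fold change -0.68, adjusted p = 0.2192 unpaired and 0.01005 blocked). With the block, Col5a1 had -0.55 (adjusted p = 0.01681), Col11a2 -0.49 (0.04654), Col9a2 -0.42 (0.03303) and Col12a1 -0.40 (0.01748). All 6 were lower at every age.

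This comparison shares its C3 libraries with that of C3 against WT-C3. Col9a3 had 41.9, 35.2, 32.9, 31.1 and 21.2 in C3-cJunKO and 41.3, 38.7, 30.6, 36.9 and 17.6 in C3, and Col16a1 had 278, 321, 354, 434 and 354 and 388, 376, 333, 379 and 259.8. Both overlapped (log2 fold change -0.01, adjusted p = 1 and 0.01, adjusted p = 1). Col4a1 (-0.16) and Col23a1 (-0.11) had no call in either fit. Of the marker lists, only Ngfr, a repair Schwann cell marker, was called in C3-cJunKO, as lower.

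Between the wild types, which differ in strain and carry no transgene, 4 members were higher and 6 lower in WT-C22 than in WT-C3. This was 25.6% of members against 21.7% of all genes, with a background of 9.99% higher and 11.7% lower. These libraries are also the controls of the model comparisons. Col6a5 differed most, with 149.9, 97.5, 151, 131 and 128 scaled CPM in WT-C3 and 30.2, 36.9, 41.5, 40.3 and 49.9 in WT-C22 (log2 fold change -1.72, SE 0.147, adjusted p = 5.726e-06). No WT-C22 value reached the lowest WT-C3 value, and C22 had 31.1, 27.1, 22.6, 37.0 and 28.6, with 3 of 5 libraries below the lowest WT-C22 value. Col4a3 had 10.2, 18.0, 19.1, 14.8 and 17.5 in WT-C3 and 6.62, 7.43, 7.45, 7.27 and 6.18 in WT-C22 (log2 fold change -1.19, SE 0.158, adjusted p = 0.0002083), and its partner Col4a4 had -0.41 (adjusted p = 0.003359). Every WT-C22 library was below every WT-C3 library for both.

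Col28a1 averaged 80.0 ± 21.0 scaled CPM in WT-C22 and 171 ± 64.3 in WT-C3 (log2 fold change -1.10, SE 0.247, adjusted p = 0.007224). Col11a1 (-0.89, adjusted p = 0.0326, lost in 5 of 10 fits without 1 library) and Col8a2 (-0.48, adjusted p = 0.01488) were also lower. In the other direction, Col7a1 was 2.48-fold higher in WT-C22 (log2 fold change 1.31, SE 0.275, adjusted p = 0.004963), each WT-C22 library lying above each WT-C3 library. Col16a1 had 206, 179.9, 162, 128 and 206 in WT-C3 and 486, 359, 339, 303 and 316 in WT-C22, again without overlap (log2 fold change 1.03, SE 0.155, adjusted p = 0.0005214). Col12a1 (0.50, adjusted p = 0.0006223) and Col23a1 (0.43, adjusted p = 0.0077) were higher as well. Mast cell markers (4 of 4) and adipocyte markers (3 of 5) were higher in WT-C22, and 3 of 6 perineurial markers were lower. Among the others, 2 of 5 pericyte, 1 of 5 endothelial, 1 of 7 Schwann cell and 1 of 8 tested fibroblast markers were higher, and 1 fibroblast marker was lower. Whether these take part in the collagen differences was not tested.

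Most collagen genes fell with age. In a fit of 1 slope per week shared by the 5 groups, 28 of 39 members fell and 3 rose at an adjusted p under 0.05, 71.8% falling against 13.0% of the 15298 genes tested and 15.5% of genes rising. Both directions together covered 28.5% of genes. The fall included 10 of 11 fibrillar, 6 of 8 basement membrane and 12 of 20 other members. The summed collagen share was 3.71% ± 0.467 (n = 5 groups) at 3 weeks, 2.76% ± 0.516 at 5, 2.44% ± 0.474 at 7, 1.78% ± 0.280 at 9 and 1.61% ± 0.276 at 12 weeks. Fibrillar genes went from 2.701% ± 0.332 to 1.03% ± 0.190, basement membrane genes from 0.591% ± 0.118 to 0.326% ± 0.0612 and the other genes from 0.419% ± 0.0634 to 0.254% ± 0.0364. Without the 3-week libraries 24 members fell and 1 rose. The shares of all genes in that smaller fit are not given here.

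**Figure D4:**
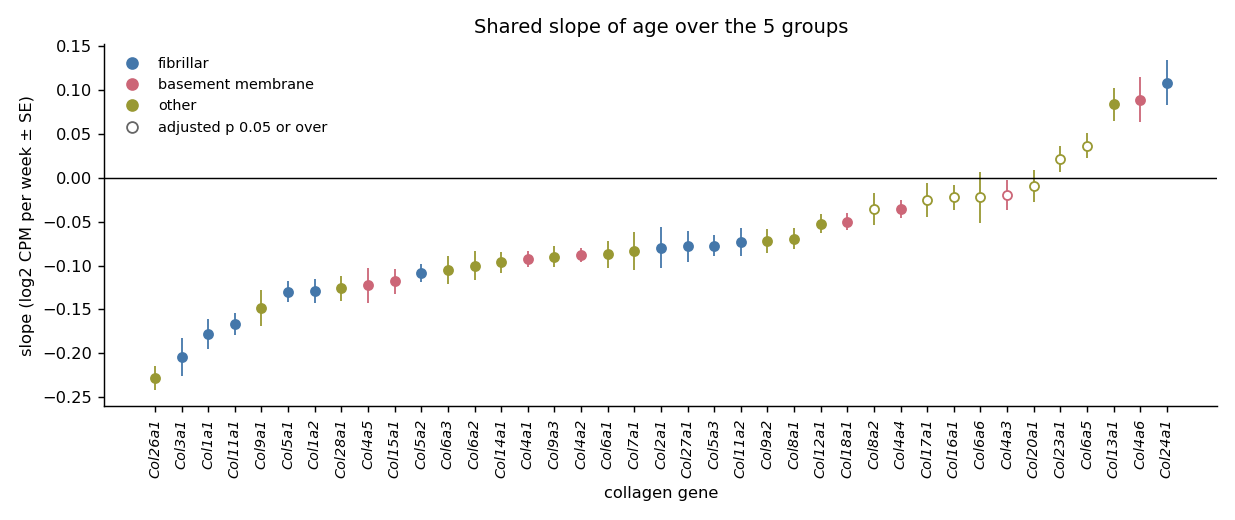
Slope of log2 CPM per week (± SE) shared by the 5 groups for each of the 39 collagen genes, coloured by class and filled at an adjusted p under 0.05. The slopes run from -0.228 for Col26a1 to 0.108 for Col24a1, and 28 filled points lie under 0.

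Col26a1, a small collagen with an EMI domain, fell most steeply, by 0.228 per week on the log2 scale (SE 0.0133, adjusted p = 9.832e-11). In WT-C3 it had 153, 125, 93.9, 61.4 and 49.4 scaled CPM, in C3 127, 129.8, 109, 64.9 and 38.2, in C3-cJunKO 178, 95.3, 82.7, 48.0 and 34.5, in WT-C22 192, 146, 73.9, 58.9 and 41.2 and in C22 99.1, 60.8, 37.6, 27.5 and 24.8. The decline was present in each group, with the C22 values lowest at every age. Col3a1 fell by 0.204 per week (SE 0.0214, adjusted p = 3.416e-07). It had 10890, 5107, 5304, 2791 and 2369 in WT-C3, 9239, 7725, 7072, 2912 and 2181 in C3, 10520, 5998, 4629, 2157 and 2318 in C3-cJunKO, 7856, 5702, 4009, 2711 and 4179 in WT-C22 and 7334, 4625, 4099, 3104 and 2126 in C22. The 3-week library was the highest of its group throughout, whereas WT-C22 and, by less, C3-cJunKO were higher at 12 than at 9 weeks.

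Col1a1 fell by 0.178 per week (SE 0.0173, adjusted p = 1.309e-07). It had 6386, 3553, 3313, 2228 and 1744 scaled CPM in WT-C3, 6539, 6092, 5532, 3331 and 1767 in C3 and 6791, 3835, 3105, 1748 and 1873 in C3-cJunKO. At 5 and 7 weeks C3 stood well above the other groups, and at 12 weeks it did not. Col1a2 fell by 0.129, Col5a1 by 0.130, Col5a2 by 0.108 and Col11a1 by 0.166 per week on the log2 scale. Col4a1 (a fall of 0.0921 per week in size, SE 0.00908, adjusted p = 1.5e-07) and Col4a2 (0.0881) declined more slowly. Col4a1 in C3-cJunKO had 2518, 2264, 1919, 1507 and 1339, a decrease with each age as in C3.

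Members that rose with age were few. Col24a1, a short-helix fibrillar collagen expressed in bone and cornea, rose by 0.108 per week (SE 0.0254, adjusted p = 0.00235). Its scaled CPM was 32.8, 94.5, 74.3, 80.7 and 144 in WT-C3, 97.9, 107, 102, 161 and 145 in C3, 83.7, 169, 209, 246 and 138 in C3-cJunKO, 119, 135, 171, 146 and 126 in WT-C22 and 41.7, 49.5, 90.3, 81.7 and 135 in C22. The 3-week value was the lowest of every group, but the later values did not rise steadily, and the call was lost without the 3-week libraries. Col4a6, a type IV chain of smooth muscle and skin, rose by 0.0888 per week (adjusted p = 0.01125). It was near the detection limit, with 1.56, 1.58, 2.74, 1.91 and 2.26 in WT-C3, 1.08, 1.74, 1.97, 0 and 2.68 in C3, 1.17, 2.49, 1.86, 1.91 and 2.39 in C3-cJunKO, 1.08, 1.59, 1.44, 1.56 and 2.35 in WT-C22 and 1.63, 1.46, 3.40, 2.95 and 2.55 in C22, and this call too was lost without the 3-week libraries. The 0 is the shallow 9-week C3 library. Col13a1, a membrane collagen of the neuromuscular junction, rose by 0.0834 per week (adjusted p = 0.001628), from 2.42, 1.501, 2.97, 1.51 and 3.91 in WT-C3, 1.91, 2.17, 2.45, 4.20 and 2.72 in C3, 1.64, 2.62, 2.38, 3.45 and 3.62 in C3-cJunKO, 2.85, 2.55, 2.88, 3.56 and 4.56 in WT-C22 and 2.48, 2.04, 3.30, 3.53 and 3.12 in C22. Its values scattered widely, WT-C3 at 5 and 9 weeks being lower than at 3 weeks.

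Cell type markers changed with age too. Markers of proliferating cells (4 of 4) and Schwann cells (6 of 7) fell, while those of endothelial cells (5 of 5), adipocytes (5 of 5) and mast cells (4 of 4) rose. Fibroblast markers summed to 2923 to 3770 CPM at 3 weeks and to 3892 to 4190 CPM at 12 weeks, with 2 of 8 tested markers rising and 1 falling. Perineurial markers (4 of 6) and pericyte markers (2 of 5) rose, and 1 of 6 macrophage markers fell. No muscle or blood marker passed. Of the fibroblast markers, Dcn and Pi16 rose and Lum fell, and the median slope of that list was 0.022 per week. The part of these shifts in the collagen slopes was not tested.

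**Figure D5:**
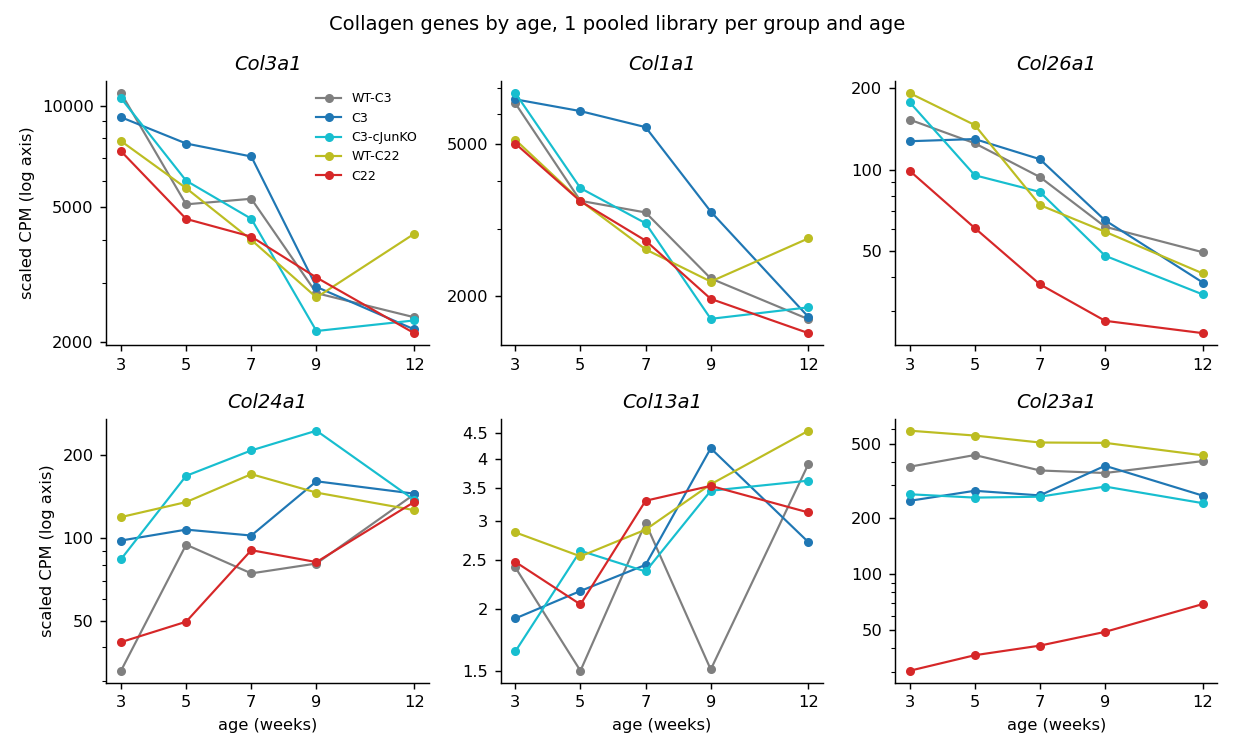
Scaled CPM (log axis) of 6 collagen genes against age in weeks, with 1 line per group and 1 point per pooled library. Col3a1, Col1a1 and Col26a1 decline with age, Col24a1 and Col13a1 are among the risers, and Col23a1 increases in C22 from 30.4 to 69.2.

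Within single groups, a spline of age with 3 degrees of freedom found an age effect for 10 members in WT-C3 (0.693% of all genes called), 17 in C3 (2.27%), 16 in C3-cJunKO (3.38%), 7 in WT-C22 (2.86%) and 4 in C22 (0.752%). Col11a1 and Col26a1 passed in all 5 groups, and Col1a1 in every group except WT-C22. In C22 the calls were Col1a1, Col11a1 and Col26a1, which fell, and Col23a1, which rose. A spline per group leaves little to estimate spread from in 5 libraries. Leaving out 1 can therefore lower a count through fewer libraries alone. These counts were highest without the 7-week library in WT-C3 (13), C3 (23) and C22 (6). The share of all genes called in the fits without 1 library is not given here. The counts fell in other fits, among them those that follow. In WT-C3 they became 0, 6 and 1 without the 3-, 9- or 12-week library, in C3 6 and 2 without the 3- or 12-week library, in WT-C22 1, 3 and 1 without the 3-, 9- or 12-week library, and in C22 0 and 0 without the 3- or 9-week library. In C3-cJunKO they became 2, 9, 10, 7 and 2 without the 3-, 5-, 7-, 9- or 12-week library.

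Whether the time courses differed between groups was tested with the same spline in edgeR. No member passed for C3 against WT-C3 (0 of 39, 0.0261% of all genes called), C22 against WT-C22 (0, 0.0523%) or C3-cJunKO against C3 (0, 0.0588%). At an unadjusted p under 0.05 there were 16, 5 and 10 of 39 members, while 8.77%, 11.4% and 10.6% of all genes had such a p. The DESeq2 likelihood ratio test called 3, 3 and 2 members, and 0.418%, 1.60% and 1.74% of all genes. The smallest adjusted p-values were 0.327 for Col8a2 in C3, 0.0914 for Col23a1 in C22 and 0.296 for Col7a1 in C3-cJunKO. With a linear slope in place of the spline, Col23a1 rose by 0.176 more per week in C22 than in WT-C22 (SE 0.0282, adjusted p = 0.005913), and the Col8a2 slope was lower in C22 (-0.158, SE 0.0352, adjusted p = 0.04868).

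Several chains that assemble together lie side by side in the genome. Col4a1 (chr8:11248423-11362826, - strand) and Col4a2 (chr8:11362471-11499287, + strand) overlap at their starts in GENCODE M39 on GRCm39, as do Col4a3 (chr1:82564642-82699780, + strand) and Col4a4 (chr1:82426144-82564800, - strand), while Col4a5 and Col4a6 on chromosome X start 1282 bases apart. All are transcribed away from each other. The library kit keeps strand, but whether strand was used in counting is not given in the sources used here, so reads in the overlapping first exons could be assigned to neither gene. Over the 25 libraries log2 levels correlated at r = 0.99 for Col4a1 and Col4a2, 0.95 for Col4a3 and Col4a4 and 0.41 for Col4a5 and Col4a6, libraries sharing age and group in all cases. With group means removed these were 0.99, 0.79 and 0.45.

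The start region shared by Col4a1 and Col4a2 is shown because both genes fell in C22 and with age. In RefSeq on GRCm38.p6 their starts are 21 bases apart, against 317 bases between their canonical starts in GENCODE M39. The stretch common to both RefSeq promoter windows (chr8:11312777-11312854, + strand, 78 bases) holds 1 match to GGGCGG, in capitals.
Col4a1 and Col4a2: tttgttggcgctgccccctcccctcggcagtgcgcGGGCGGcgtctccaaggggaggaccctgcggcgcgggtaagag

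Promoter windows of 250 bases before to 50 bases after the start were found for 31 of the 39 members (34 windows). On either strand, GGGCGG was in 61.8% of member windows and 35.7% of all 32851 windows, CCAAT in 32.4% and 37.4%, and TATAAA in 11.8% and 13.6%. Windows of Col4a1, Col4a2 and Col4a5 held both GGGCGG and CCAAT, the Col4a6 window GGGCGG, and the Col4a4 window neither. A match is a description of these letters only.

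Other members with a like pattern over the 25 libraries were Col6a1 and Col6a2 (r = 0.99, neighbours on chromosome 10), Col1a1 with Col1a2 and with Col3a1 (both 0.97) and Col9a3 with Col11a2 (0.94, or 0.87 with group means removed). Col23a1 was most like Col8a2 (0.89), but with group means removed the value was -0.36, so that the likeness lay between groups and not within them. Col4a1 and Col23a1 had 0.72 and, without group means, -0.067. Col6a5 and Col6a6, neighbours on chromosome 9, went opposite ways over all libraries (-0.62) and had 0.28 within groups. These values are descriptions, since libraries share age, group and depth.

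Genes that make and modify collagen were followed from a list of 24, which includes the prolyl and lysyl hydroxylases, collagen chaperones and export factors. The shares of all genes called are the background for this and the lists that follow, namely 12.5% higher and 11.4% lower in C3, 21.9% and 20.5% in C22, 9.99% and 11.7% between wild types, 0.550% in either direction in C3-cJunKO and, with age, 15.5% rising and 13.0% falling. In C3, 1 rose (P3h4, log2 fold change 0.39) and 1 fell (P4ha1, -0.60). In C22, 8 rose and 6 fell, the largest rises being Colgalt2, a collagen galactosyltransferase (1.41), and Tmem38b, an endoplasmic reticulum channel gene (1.02), and the largest falls P3h2, a prolyl 3-hydroxylase (-2.46), and P4ha1, a prolyl 4-hydroxylase subunit (-1.04). None passed in C3-cJunKO, and between wild types 3 were higher and 1 lower in WT-C22. With age 14 of 24 fell, led by Sparc (-0.084 per week), a collagen-binding protein, and Serpinh1 (-0.075), the collagen chaperone, and 1 rose (P3h2, 0.077).

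Of 12 tested genes for procollagen processing and crosslinking, 1 rose and 2 fell in C3, 1 rose and 4 fell in C22, none passed in C3-cJunKO and 1 was lower in WT-C22 than in WT-C3. Lox, the lysyl oxidase that crosslinks collagen, averaged 1226 ± 346 scaled CPM in WT-C22 and 64.7 ± 7.05 in C22 (log2 fold change -4.25, adjusted p = 8.68e-08), and fell by 1.36 on the log2 scale in C3 (adjusted p = 0.003982). Tll1, a procollagen proteinase, fell in both models (-0.62 in C3 and -3.004 in C22), while Tll2 rose (0.84 and 1.21). The difference between the models passed the test for Lox (-2.91, adjusted p = 1.143e-05) and Tll1 (-2.40, adjusted p = 4.263e-06). With age 7 of 13 fell and 1 rose (Pcolce2).

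Among 11 tested collagen receptors, 4 rose and 1 fell in C3, and 3 rose and 4 fell in C22. In C22, Lair1, an inhibitory receptor of leukocytes, rose most (1.75), followed by the integrin chain Itga10 (0.98), and Ddr1, a collagen-binding tyrosine kinase (-0.90), and Itga1 (-0.76) fell most. Ddr1 rose in C3 (0.39), and its difference between the models was -1.31 (adjusted p = 2.528e-06). None passed in C3-cJunKO, 2 were higher and 1 lower in WT-C22 than in WT-C3, and with age 1 rose and 4 fell. Of 10 tested proteoglycans that bind fibrils, 1 rose and 4 fell in each model, with Epyc rising (0.69 in C3 and 1.23 in C22) and Ogn falling most (-1.02 and -2.10). Epyc was the single listed gene that fell in C3-cJunKO (-1.23, adjusted p = 0.007029), 3 were higher and 2 lower in WT-C22, and with age 5 rose and 2 fell.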

How the data were processed

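Whole sciatic nerve RNA (poly(A)-enriched, NEBNext Ultra II Directional, NovaSeq6000) was measured in 25 libraries, 5 per group. The authors deposited raw counts per gene in 1 table, made with BIOWDL from FastQC 0.11.9, cutadapt 2.10, STAR 2.7.5a (GRCm39 with the human PMP22 locus of GRCh38), UMI-tools 1.1.1 and HTSeq 0.12.4 with Ensembl annotation. Whether HTSeq used strand is not given in the sources used here. Symbols came from GENCODE M39 for 56323 of 56941 mouse genes, and the 5 summary lines of HTSeq were left out.

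Groups were compared with edgeR 4.0.16 quasi-likelihood fits in R 4.3.3, with TMM scaling, genes with log2 CPM above 1 in at least 25% of libraries and Benjamini-Hochberg adjustment over all genes (threshold 0.05). All 39 described members passed this filter and filterByExpr, and 0 of the 5 below 1 CPM did. The age fits used filterByExpr. DESeq2 1.42.0, other scalings, filters and age shapes and fits without each library were alternatives. Levels are CPM with TMM-scaled library sizes over all 25 libraries, and levels per kilobase divide the plain CPM, or group means, by exon length. Scripts were tested on simulated counts.

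Age was treated as pairing libraries only where every same-age pair deviated together (correlation above 0.1), which held for C3-cJunKO and C3. Correlations were 0.143 to 0.614 there, -0.252 to 0.382 for C3 and WT-C3, -0.128 to 0.45 for C22 and WT-C22, and 0.0602 to 0.667 for the wild types. Members and gene lists were chosen with earlier results of these data known. Library values are printed for Col1a1, Col4a1, up to 3 called members per direction and comparison with the largest log2 fold change, and the 3 steepest age slopes per direction. For other lists, up to 2 called genes per direction are named. The glycine repeats were read from GENCODE M39 coding sequences on GRCm39, and promoter windows are RefSeq's on GRCm38.p6.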

Additional observations from a re-analysis of the deposited data

Results flagged for a closer look

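Among 19 collagen genes with library values, 95 sets of 5 libraries were checked for a value far from the others of its group, and 4 held such a value. The cutoff is met by about 1 in 20 sets of independent, normally spread values. These libraries differ in age, and most of the genes were picked for large effects or slopes, so that rate need not hold here. Col11a2 was lowest in C3-cJunKO at 12 weeks (12.95 scaled CPM, next 20.44). Col23a1 was highest in C3 at 9 weeks (381.3, next 280), with 817 counts in the library of 2140142 counts. Col8a2 was lowest in C3 at 12 weeks (26.95, next 52.26), and Col28a1 was highest in C22 at 3 weeks (71.86, next 52.65).

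The effect in C22 differed from that in C3 for 13 collagen genes, by the edgeR test of the difference of log2 fold changes. The differences (C22 effect minus C3 effect) were -3.105 for Col23a1, -2.079 for Col8a2, -2.035 for Col7a1, -1.899 for Col2a1, -1.519 for Col28a1, -1.328 for Col12a1, -1.286 for Col5a3, -1.274 for Col4a1, -1.078 for Col4a2, -1.043 for Col14a1, -0.7601 for Col18a1, -0.7191 for Col16a1 and -0.6633 for Col4a4. Strain and copy number cannot be told apart in them.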

How the results depend on the processing

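No called member reversed its direction. With library size alone as scaling, members without a call changed sign, 6 in C3, 5 in C22 and 3 in the difference between the models. Of 253 alternatives for counts and summed levels, 219 stayed within 1.5 times the count or 1 SD of the level given, and 34 moved. Of 2693 alternatives for called members, 233 took an adjusted p past the threshold. The cause of these shifts was not tested, apart from fewer libraries or a stricter threshold by construction.

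At an adjusted p under 0.01 the difference between the models covered 7 members. For C3-cJunKO against C3, DESeq2 gave 2 members, the edgeR likelihood ratio test 2, no filter on low counts 1, all 25 libraries in 1 fit 1 and the age block 6. The age block called 1.95% of all genes. The shares in the other fits of C3-cJunKO and at 0.01 are not given here. Age effects within groups by the DESeq2 likelihood ratio test numbered 19 in WT-C3 (2.63% of all genes called), 26 in C3 (6.34%), 18 in WT-C22 (7.13%) and 13 in C22 (3.65%), and in WT-C22 a linear slope gave 16 (7.77%) and 2 degrees of freedom 15 (5.35%). Time courses by that DESeq2 test numbered 3 for C3 against WT-C3, 3 for C22 against WT-C22 and 2 for C3-cJunKO against C3, while C22 against WT-C22 had 2 with a linear slope (0.464% of all genes called) and 1 with 2 degrees of freedom (0.17%).

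With age as a replicate block, C3 against WT-C3 went from 10 to 14 members (26.4% of all genes called), adding Col1a1, Col5a1, Col5a2 and Col28a1 (adjusted p = 0.0003917). C22 against WT-C22 went from 17 to 25 (44.1%), adding Col4a5, Col5a1, Col5a2, Col7a1, Col11a1, Col16a1, Col18a1 and Col26a1. The difference between the models went from 13 to 17 (14.7%), adding Col5a2, Col9a1, Col24a1 and Col26a1. WT-C22 against WT-C3 went from 10 to 17 (26.6%), adding Col4a1, Col5a2, Col9a2, Col11a2, Col14a1, Col18a1 and Col24a1. The block removed no call in these comparisons.

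Leaving out 1 library gave 8 to 15 members for C3, 14 to 20 for C22, 12 to 14 for the difference, 0 to 1 for C3-cJunKO, 9 to 12 for the wild types and 31 to 32 for the age slope. The share of all genes called in each of these fits is not given here, so the ranges are not set against a background. Within groups the ranges were 0 to 13 in WT-C3, 2 to 23 in C3, 2 to 10 in C3-cJunKO, 1 to 5 in WT-C22 and 0 to 6 in C22, and each time course stayed at 0 to 0. The 5 libraries per group limit what small differences can pass, and genes near 1 CPM rest on few reads in the shallow C3 library of 9 weeks.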
